A study of Mus musculus with 12 samples.

Results

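Msln, Wt1, Upk3b, Upk1b and Lrrn4, genes of the mesothelium, and Krt7, Krt8, Krt18 and Krt19, keratins of simple epithelia, were followed in cultured mouse embryonic fibroblasts. These 9 genes, 5 mesothelial and 4 keratin, are 9 of the 26305 genes with an identifier in the count table. They were chosen by name, with their change between the times of culture already known, to describe whether transcripts of a mesothelial-like minority faded in the primary culture. The levels over time are therefore given as a description without a test. The comparison of the compound with its vehicle did not enter the choice and was tested.

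RNA was sequenced from 12 cultures, 3 biological replicates in each of 4 groups. All came from male C57BL/6 mouse embryos of wild type genotype at embryonic day 13.5. All were kept in DMEM with 10% serum under 3% oxygen and 5% carbon dioxide. The groups received DMSO for 96 h, WM-2474 for 96 h, DMSO for 240 h or WM-2474 for 240 h. WM-2474, a compound known here by its code name, was used at 10 µM, and the labels call it an inactive control. DMSO was its vehicle. There was no untreated group, and both times were reached under one agent or the other. The labels do not say whether replicates came from separate embryos or litters, so the p-values measure the spread between these cultures.

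The mesothelium is the flat epithelium that lines the body cavities and covers the organs within them. It keeps features of both epithelium and mesenchyme: it holds simple keratins as well as vimentin, and in the embryo it gives rise to some of the fibroblasts beneath it. Embryonic fibroblasts are prepared from minced embryos, so a primary culture can carry other cell types of the embryo for some time. Keratins build filaments from obligate pairs of a type I and a type II chain. Krt8 and Krt7 are type II chains, and Krt18 and Krt19 are type I chains.

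The 4 promoter windows below belong to the members whose levels are set against each other in the results, namely a pair that was low in the same cultures (Upk3b and Lrrn4) and a keratin pair of neighbouring genes (Krt8 and Krt18). Each shows the 250 bases before the RefSeq start of the gene, 5′ to 3′ on the gene's own strand, in build GRCm38.p6. Capitals mark AGGTCA, a core motif of nuclear receptors, and GGAATG or its complement CATTCC, a TEAD element. Both were searched on both strands and do not overlap each other here. These letters were chosen after the windows had been read.
Upk3b: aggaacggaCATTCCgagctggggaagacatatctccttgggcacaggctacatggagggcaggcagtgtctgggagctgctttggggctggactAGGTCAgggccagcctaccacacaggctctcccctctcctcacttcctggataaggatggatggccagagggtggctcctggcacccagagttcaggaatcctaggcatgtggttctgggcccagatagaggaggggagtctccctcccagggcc
Lrrn4: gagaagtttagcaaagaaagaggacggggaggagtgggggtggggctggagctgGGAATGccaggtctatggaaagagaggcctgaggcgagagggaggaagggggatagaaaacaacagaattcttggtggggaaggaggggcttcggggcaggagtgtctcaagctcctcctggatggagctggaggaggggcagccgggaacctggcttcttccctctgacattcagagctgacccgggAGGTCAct
Krt8: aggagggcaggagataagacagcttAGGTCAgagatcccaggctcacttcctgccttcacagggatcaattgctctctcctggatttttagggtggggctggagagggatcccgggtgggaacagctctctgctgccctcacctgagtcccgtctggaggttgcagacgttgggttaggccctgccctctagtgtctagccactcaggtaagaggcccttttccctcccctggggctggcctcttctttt
Krt18: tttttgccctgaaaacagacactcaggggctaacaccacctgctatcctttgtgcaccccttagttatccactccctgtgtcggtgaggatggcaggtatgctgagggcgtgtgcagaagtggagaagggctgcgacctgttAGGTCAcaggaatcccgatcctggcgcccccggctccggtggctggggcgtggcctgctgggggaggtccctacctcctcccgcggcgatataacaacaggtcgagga
The windows are chr5:136038246-136038495 on the plus strand for Upk3b, chr2:132880863-132881112 on the minus strand for Lrrn4, chr15:102004343-102004592 on the minus strand for Krt8 and chr15:102027966-102028215 on the plus strand for Krt18. The Lrrn4 window lies inside the annotated span of the gene, at a RefSeq start within it. AGGTCA was present in 4 of the 5 members that had a window and in 14.0% of all 32851 windows. GGAATG was present in Upk3b and Lrrn4 and in 12.6% of all windows. The GC box GGGCGG was found in Krt7 alone of the 5, and in 32.7% of all windows. An AP-1 element, TGANTCA, and the TATA box TATAAA were in none of the 5 windows, against 6.75% and 12.4% of all windows. These matches describe the letters of the windows.

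In the GRCm38.p6 annotation all 9 members are protein-coding. Msln lies on chromosome 17 from 25748613 to 25754378 on the minus strand, and Wt1 on chromosome 2 from 105126529 to 105173614 on the plus strand. Upk3b occupies 136038496 to 136044993 of chromosome 5, on the plus strand, and Upk1b 38773182 to 38800203 of chromosome 16, on the minus strand. Lrrn4 spans 132866686 to 132894010 of chromosome 2, on the minus strand. The 3 keratin members on chromosome 15 are Krt7 from 101412403 to 101427806 on the plus strand, Krt8 from 101996711 to 102004342 on the minus strand and Krt18 from 102028216 to 102032026 on the plus strand. Krt8 and Krt18 are 23873 bases apart and point away from each other. Krt19 lies with other type I keratins on chromosome 11, from 100140810 to 100145926 on the minus strand.

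Library totals were 7313007 to 26019167 counts. The floor was 3 counts in a library, and counts at or under it were treated as not readable. It corresponds to 0.12 to 0.425 CPM depending on depth. CPM is the count relative to the library size, which was scaled by the trimmed mean of M values. RPKM is CPM per 1000 bases of exon and is used only to compare genes. The fibroblast label was checked with 11 fibroblast genes, among them the collagen gene Col1a1, which summed to 22500 to 27600 CPM at 96 h and 35400 to 40300 CPM at 240 h. None of the 11 was at 0 in any library. Replicates 1 and 2 of DMSO at 240 h stood apart in 14 genes of the B lineage, which summed to 13.3 and 16.6 CPM there and to 0.997 to 3.47 CPM in the other 10 libraries.

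The 5 mesothelial members together gave 21.3 to 45.4 CPM in the 6 libraries of 96 h and 7.34 to 13.6 CPM in the 6 libraries of 240 h. The 4 keratin members gave 31.2 to 40.4 CPM at 96 h and 17.7 to 19.4 CPM at 240 h. Both sums were lower in every library of 240 h than in any library of 96 h, while the sum of the fibroblast genes was higher. The sum of 12 other mesothelial genes, described with the gene lists, was 284 to 302 CPM at 96 h and 285 to 329 CPM at 240 h. Most of that sum came from Pdpn and Cdh3. Not all of the fibroblast genes rose: by the test described with the gene lists 6 of the 11 rose and 2 fell in each treatment. Postn, periostin, rose by 1.18 in both and Thy1 by 0.57 and 0.61 on the log2 scale, with DMSO and WM-2474 in that order, while Pdgfra, a receptor of platelet-derived growth factor, fell by 0.52 and 0.57 and Fbln1, fibulin, by 0.51 and 0.41. In RNA from a whole culture, fewer cells of a type and less RNA per cell cannot be told apart. The members differed in how much of the level at 96 h was left at 240 h: of the 3 with the most counts, Msln kept the least and Krt19 the most, and Upk1b had no common direction.

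**Figure D1:**
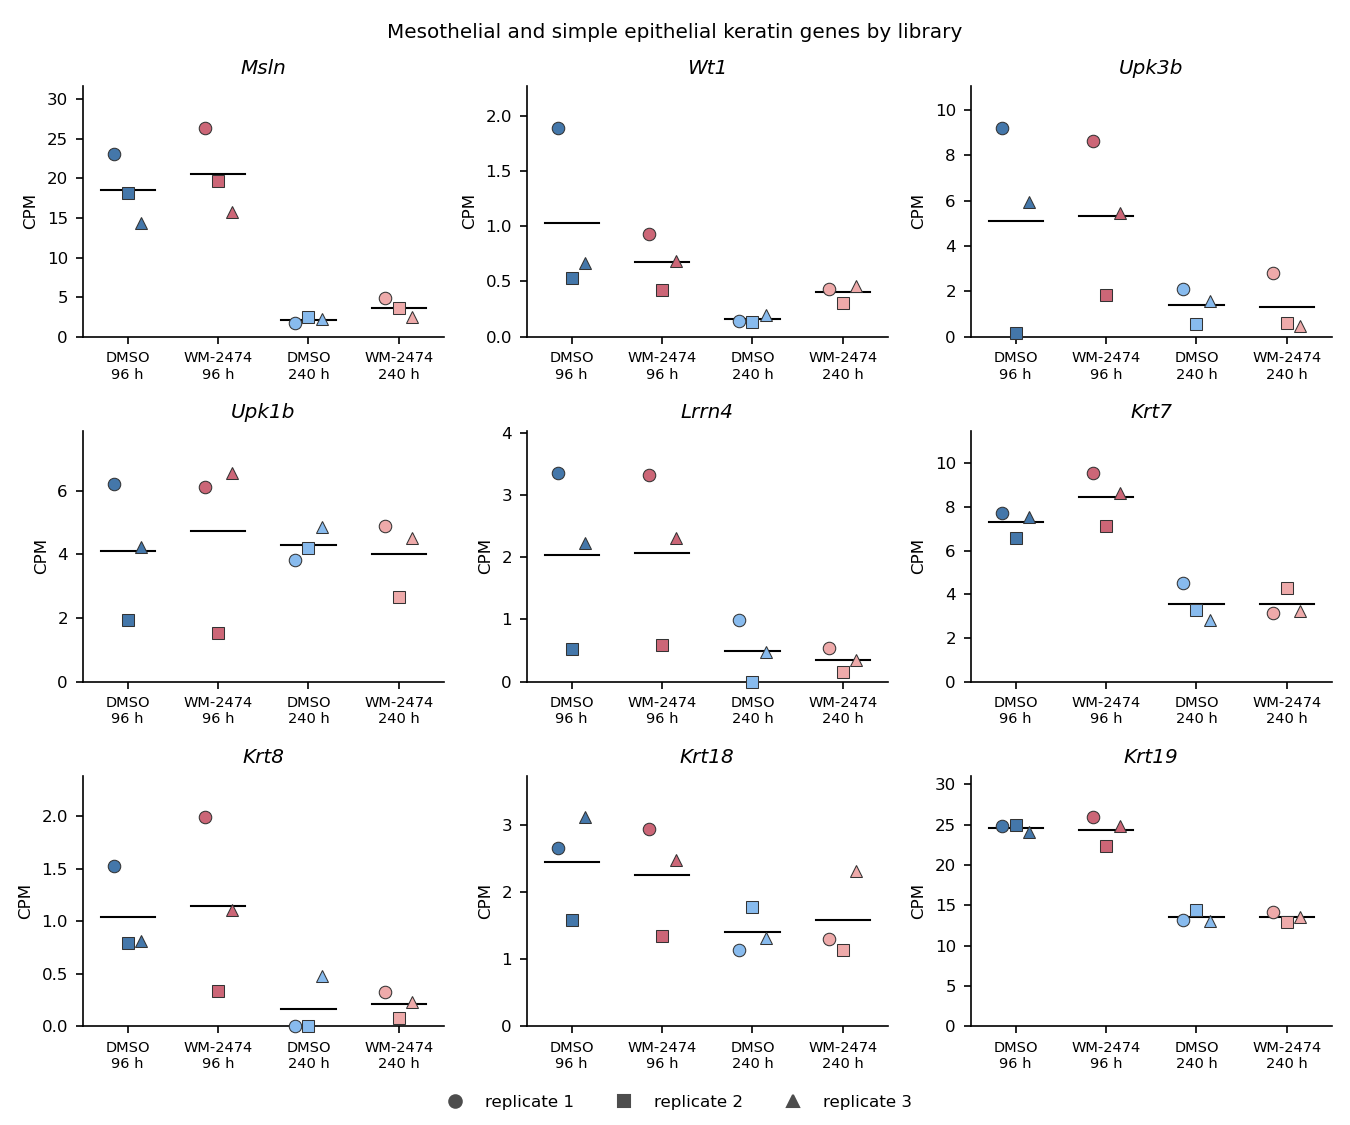
CPM (linear axis, one scale per gene) of the 9 members in the 12 libraries, by group, with each point a culture, its shape the replicate number, and each line the mean of 3. Msln, Krt7 and Krt19 separate the times in both treatments, whereas the points of Upk1b overlap between 96 h and 240 h.

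Msln encodes mesothelin, a surface glycoprotein that is attached to the membrane of mesothelial cells. It had 23.1, 18.1 and 14.4 CPM in the cultures with DMSO at 96 h and 26.4, 19.7 and 15.7 CPM with the compound at that time. At 240 h the values were 1.70, 2.45 and 2.29 CPM with DMSO and 4.88, 3.66 and 2.54 CPM with WM-2474. The times did not overlap in either treatment. The difference from 96 h to 240 h was -3.08 ± 0.30 (log2 fold change ± standard error), or 8.46-fold lower, with DMSO. With WM-2474 it was -2.48 ± 0.28, or 5.59-fold lower. Its raw counts at 240 h, 12 to 57, remained above the floor of 3 in all 6 libraries.

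Wt1, a zinc finger transcription factor of the mesothelium and of the organs that form from the coelomic lining, was the member with the fewest counts at 96 h. Its raw counts with DMSO were 32, 6 and 9 at 96 h and 1, 1 and 5 at 240 h. With WM-2474 they were 14, 5 and 8 at 96 h and 4, 4 and 4 at 240 h. The counts of 1 in replicates 1 and 2 of DMSO at 240 h were under the floor, so Wt1 was near the limit of detection there. Wt1 did not pass the filter on low counts, which 8 of the 9 members passed. In CPM, 1.89, 0.527 and 0.666 with DMSO at 96 h stood above 0.142, 0.136 and 0.201 at 240 h. With WM-2474 the times overlapped, at 0.931, 0.420 and 0.683 CPM against 0.434, 0.305 and 0.463 CPM. In a fit without the filter the log2 difference over time was -2.56 ± 0.57 with DMSO and -0.82 ± 0.56 with WM-2474.

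Upk3b and Upk1b encode uroplakins, membrane proteins first known from the bladder lining, and both are used as mesothelial markers. Upk3b had raw counts of 156, 2 and 80 with DMSO at 96 h and 130, 22 and 64 with WM-2474 at 96 h. At 240 h the counts were 15, 4 and 39 with DMSO and 26, 8 and 4 with WM-2474. In CPM these were 9.21, 0.176 and 5.92, then 8.64, 1.85 and 5.46, then 2.12, 0.543 and 1.56, and last 2.82, 0.609 and 0.463. Replicate 2 was the lowest library at 96 h in both treatments, and the times overlapped for that reason. The difference over time was -1.89 ± 1.04 with DMSO and -2.14 ± 1.13 with WM-2474 on the log2 scale.

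Upk1b is a tetraspanin that pairs with uroplakins of the Upk3 family. It had 6.20, 1.93 and 4.22 CPM with DMSO and 6.12, 1.51 and 6.57 CPM with the compound at 96 h. By 240 h it had 3.82, 4.21 and 4.85 CPM with DMSO and 4.88, 2.67 and 4.51 CPM with WM-2474. The group means were 4.12 ± 2.13 and 4.73 ± 2.80 CPM at 96 h and 4.30 ± 0.521 and 4.02 ± 1.19 CPM at 240 h (SD, n = 3). The log2 difference over time was 0.05 ± 0.52 with DMSO and -0.30 ± 0.55 with WM-2474. With library totals in place of scaled sizes the DMSO value was -0.07, of the opposite sign. Per length, Upk1b was 0.928 and 1.03 times Upk3b at 96 h and 3.51 and 3.56 times Upk3b at 240 h, with DMSO and WM-2474 in that order.

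Lrrn4, a leucine-rich repeat membrane protein used as a mesothelial surface marker, had raw counts of 57, 6 and 30 with DMSO and 50, 7 and 27 with WM-2474 at 96 h. At 240 h the counts were 7, 0 and 12 with DMSO and 5, 2 and 3 with WM-2474. The 0 in replicate 2 allows a level of up to 0.408 CPM in that library. Of the 6 libraries of 240 h, 3 were at or under the floor. The log2 difference over time was -2.14 ± 0.87 with DMSO and -2.69 ± 1.01 with WM-2474. The libraries of the 2 times overlapped with DMSO, where replicate 2 of 96 h had 0.527 CPM and replicate 1 of 240 h 0.991 CPM, and not with WM-2474.

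**Figure D2:**
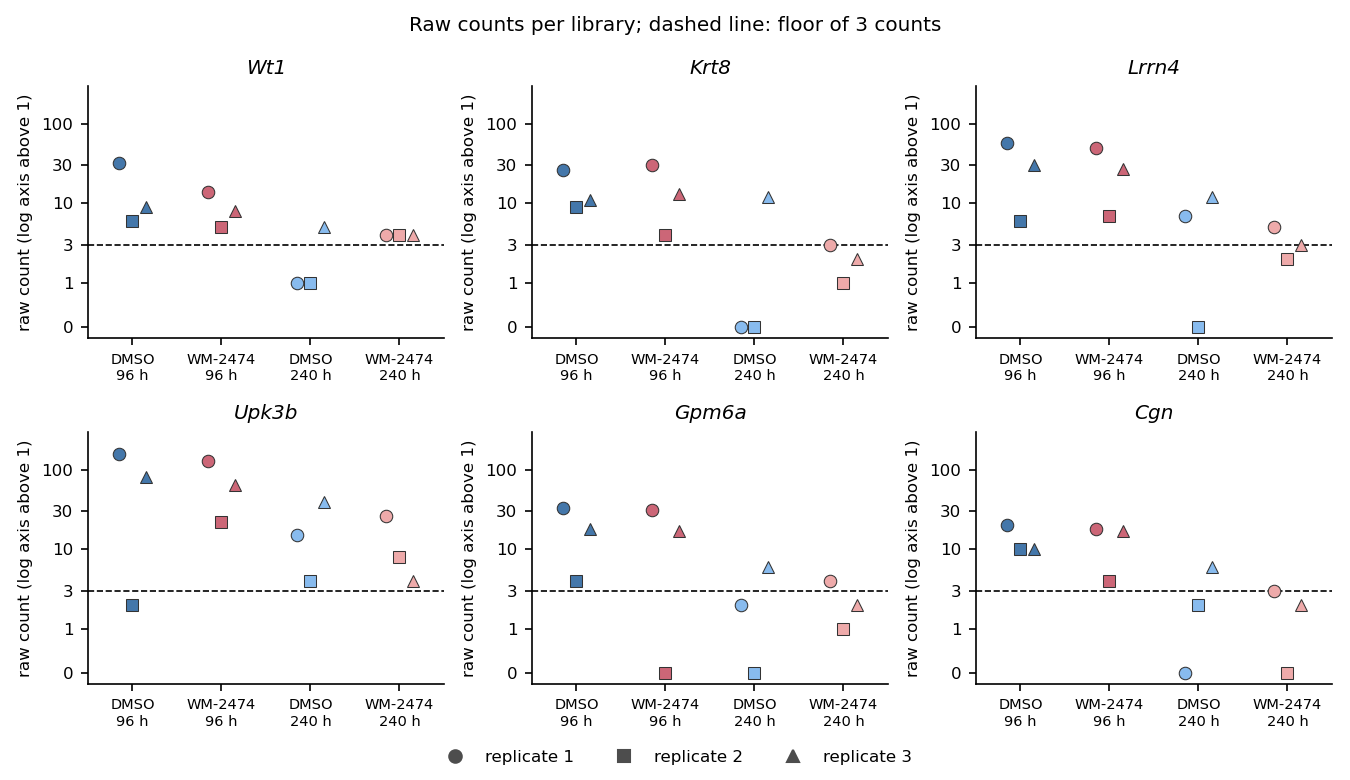
Raw counts (log axis above 1) of Wt1, Krt8, Lrrn4 and Upk3b and of Gpm6a and Cgn, a mesothelial and a junction gene described with the replicates and the junction genes, in each of the 12 libraries, with the floor of 3 counts as a dashed line. Wt1, Krt8, Lrrn4, Gpm6a and Cgn reach the floor or lie under it in some libraries of 240 h. Upk3b lies under it in replicate 2 of DMSO at 96 h. The libraries differ in total counts, and the heights are not corrected for depth.

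Krt19, the smallest keratin and a type I chain of simple epithelia, was the most abundant member. It had 24.8, 25.0 and 24.1 CPM with DMSO and 25.9, 22.4 and 24.8 CPM with the compound at 96 h. By 240 h it had 13.2, 14.4 and 13.0 CPM with DMSO and 14.2, 12.9 and 13.6 CPM with WM-2474. No library of one time reached the range of the other, and the replicates lay close together. The log2 difference was -0.88 ± 0.09 with DMSO and -0.85 ± 0.09 with WM-2474, that is 1.84-fold and 1.80-fold lower. Raw counts were 93 to 325 with DMSO at 240 h, far above the floor.

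Krt7, a type II chain that pairs with Krt19 or Krt18 in many simple epithelia, had 7.73, 6.59 and 7.55 CPM with DMSO at 96 h and 9.58, 7.14 and 8.62 CPM with WM-2474. The values at 240 h were 4.53, 3.26 and 2.81 CPM with DMSO and 3.15, 4.27 and 3.24 CPM with WM-2474. The times were again apart in both treatments. The log2 difference was -1.16 ± 0.18 with DMSO and -1.23 ± 0.18 with WM-2474, 2.23-fold and 2.34-fold lower.

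Krt8 and Krt18 form the first keratin pair of the embryo and the usual pair of simple epithelia. Krt8 had raw counts of 26, 9 and 11 with DMSO and 30, 4 and 13 with WM-2474 at 96 h. At 240 h the counts were 0, 0 and 12 with DMSO and 3, 1 and 2 with WM-2474, so 5 of the 6 libraries were at or under the floor. The 0 counts in replicates 1 and 2 of DMSO allow levels of up to 0.425 and 0.408 CPM. Those libraries were the shallowest 2 of the 12, and the 12 counts of replicate 3 came from the deepest and amount to 0.481 CPM. Krt8 at 240 h was not detectable beyond the floor in most cultures, which does not show that it was absent.

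Krt18 was counted more often. Its raw counts were 45, 18 and 42 with DMSO and 44, 16 and 29 with WM-2474 at 96 h, and 8, 13 and 33 with DMSO and 12, 15 and 20 with WM-2474 at 240 h. In CPM the group means were 2.45 ± 0.784 and 2.25 ± 0.815 at 96 h and 1.41 ± 0.325 and 1.59 ± 0.635 at 240 h (SD, n = 3). The log2 difference over time was -0.85 ± 0.32 with DMSO and -0.58 ± 0.33 with WM-2474, and the times overlapped in both treatments. Krt8 had a log2 difference of -1.85 ± 0.69 with DMSO and -2.57 ± 0.80 with WM-2474. Both values are uncertain in a further way. Of the 31-base words in the Krt8 transcripts, 36.0% also occur in transcripts of other genes, most of them in the pseudogene Krt8-ps, and for Krt18 the share is 11.4%. The treatment of reads that map to several places was not given in the sources used here. For the other 7 members the share was 3.64% or less.

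The keratin chains were not present in equal amounts per length. Krt19 was 30.9 times Krt8 in RPKM with DMSO at 96 h and 27.9 times with WM-2474. At 240 h the ratio was 111 and 84.4, with Krt8 at its floor. Krt19 to Krt18 was 10.2 and 11 at 96 h and 9.74 and 8.73 at 240 h, a ratio that moved little. These are ratios of group means without a test.

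In RPKM the order of levels with DMSO at 96 h was Krt19 (17.9), Msln (8.77), Krt7 (4.60), Upk3b (2.51), Upk1b (2.33), Krt18 (1.75), Lrrn4 (0.586), Krt8 (0.580) and Wt1 (0.332). Only Krt19, Msln and Krt18 stood apart from the next lower gene in all 3 libraries, and the other neighbours overlapped. Among the tested genes, 68.0% had a lower RPKM than Krt19, 48.2% a lower one than Msln, 33.2% than Krt7 and 3.29% than Wt1. With DMSO at 240 h the order began with Krt19 (9.84), Upk1b (2.43), Krt7 (2.23) and Msln (1.01). There Msln overlapped with Krt18 (1.01), and Msln to Krt19 was 0.103 against 0.490 at 96 h. With WM-2474 the first 3 places were Krt19 (17.7), Msln (9.74) and Krt7 (5.33) at 96 h and Krt19 (9.87), Upk1b (2.27) and Krt7 (2.24) at 240 h. At 240 h with WM-2474 the libraries of Upk1b, Krt7, Msln, Krt18 and Upk3b overlapped from each to the next.

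In 5 of the 9 members (Msln, Wt1, Krt7, Krt8 and Krt19) every DMSO library of 240 h was below every one of 96 h, and in none were they all above, beside 22.8% and 22.9% of all tested genes. With WM-2474 the 5 were Msln, Lrrn4, Krt7, Krt8 and Krt19, beside 21.2% of all tested genes, and 21.1% were above. The nearest libraries of the times there had 0.336 and 0.325 CPM for Krt8 and 0.588 and 0.542 CPM for Lrrn4. Krt8 was at or under the floor in 3 and Lrrn4 in 2 of the 3 libraries of 240 h with WM-2474. Since the members were named with this change known, nothing is read from these numbers of members. Leaving out replicates 1 and 2 of DMSO at 240 h, the libraries with B lineage transcripts, gave -3.03 for Msln, -1.38 for Krt7 and -0.92 for Krt19. The lone remaining culture is then assumed to vary like the other groups. Upk3b gave -1.79, Lrrn4 -2.15, Krt8 -1.16, Krt18 -0.91 and Upk1b 0.18 in that fit.

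The replicates of 96 h differed among themselves in a way that was shared by part of the members. Upk3b, Upk1b and Lrrn4 were each at least 2-fold lower in replicate 2 than in replicates 1 and 3, both with DMSO and with WM-2474. This held for 8 of the 13499 tested genes, or 0.0593%. The 8 were 3 members, the mesothelial genes Gpm6a and Pkhd1l1, and Acss3, Aldh1a1 and Gm11696. The criterion was set after the values had been seen, so the count is a description without a test.

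Gpm6a, a membrane glycoprotein, had raw counts of 33, 4 and 18 with DMSO and 31, 0 and 17 with WM-2474 at 96 h. Pkhd1l1, a large membrane protein related to fibrocystin, had 33, 5 and 27 with DMSO and 38, 5 and 21 with WM-2474. Aldh1a1, a retinaldehyde dehydrogenase, had 18, 4 and 16 with DMSO and 25, 5 and 15 with WM-2474. Replicate 2 was lowest in each. Msln, Krt7 and Krt19 did not meet the criterion: in replicate 2 Msln had 18.1 and 19.7 CPM, between replicates 1 and 3 in both treatments. Wt1, Krt8 and Krt18 did not meet it either. Replicate 2 was still the lowest library of 96 h in both treatments for Wt1, Krt7, Krt8 and Krt18. With DMSO and WM-2474 in that order, the mean of replicates 1 and 3 was 2.42 and 1.92 times replicate 2 for Wt1. That ratio was 1.48 and 4.62 for Krt8, 1.82 and 2.01 for Krt18 and 1.16 and 1.27 for Krt7. Nor did replicates 1 and 3 meet the criterion for any member at 96 h, where 10 and 5 of all tested genes (0.0741% and 0.037%) were at least 2-fold lower in them.

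At 240 h the same criterion was met in replicate 2 by Lrrn4, Krt8 and Gpm6a, among 9 of all tested genes (0.0667%), all 3 at counts close to the floor. For Krt8 this shows no difference with DMSO, since replicates 1 and 2 both had 0 counts there and the criterion was met as 0 against 0. Replicates 1 and 3 of 240 h met it for no member, beside 0.0741% and 0.0444% of all tested genes. The sum of the 11 fibroblast genes at 96 h was 27200 and 27600 CPM in replicate 2 and 22500 to 24600 CPM in replicates 1 and 3. Its part in the low mesothelial values was not tested. Replicates with the same number shared deviations from their group means at 96 h, with a correlation across genes of 0.301, 0.235 and 0.191 for replicates 1, 2 and 3 between the treatments.

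**Figure D3:**
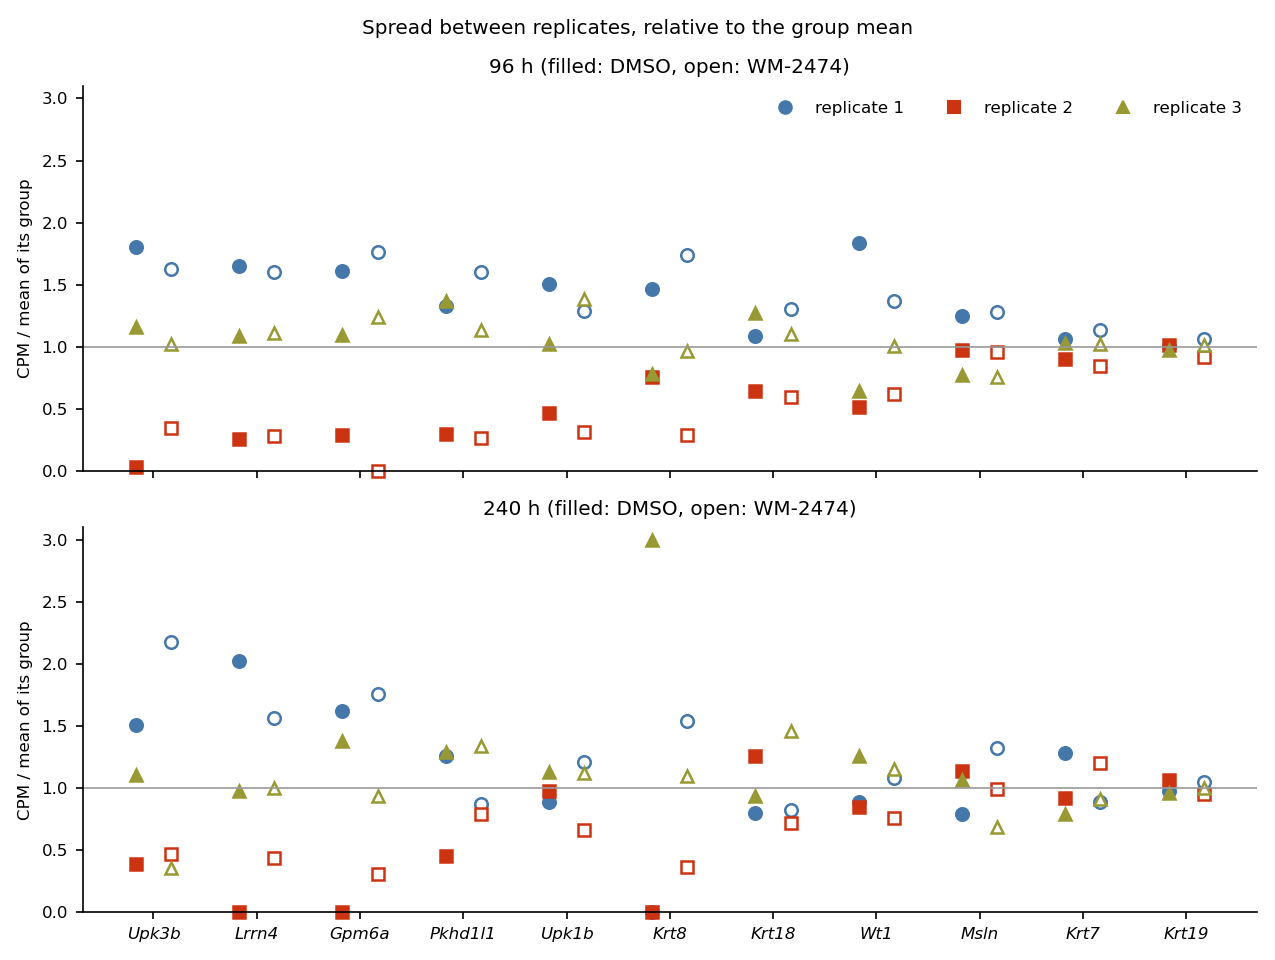
CPM divided by the mean of its group, for each culture of 96 h (top) and 240 h (bottom), with the replicate as colour and shape, DMSO filled and WM-2474 open, for the 9 members, Gpm6a and Pkhd1l1. Replicate 2 of Upk3b, Lrrn4, Gpm6a, Pkhd1l1 and Upk1b lies well under 1 at 96 h in both treatments, while the replicates of Krt19 lie close to 1. Replicate 2 of Wt1, Krt8 and Krt18 also lies under 1 at 96 h in both treatments.

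The spread between replicates, relative to the mean, differed among the members as well. For Upk3b it was 89.6% with DMSO and 63.9% with WM-2474 at 96 h, where counting error alone gives 11.2% and 11.8%. Lrrn4 had 70.1% and Upk1b 51.8% with DMSO at 96 h, against counting errors of 18% and 12.8%. Krt19 had 1.85% and 7.39%, against 5.39% and 5.63%, and Krt7 8.40% and 14.5%, against 9.87% and 9.53%. Msln lay between them at 23.6% and 26.3%, above its counting errors of 6.15% and 6.07%. Low spread was not shared by all keratin members. Krt8 had 40.4% and 72.4%, against 25.5% and 25.3%, and Krt18 32.0% and 36.2%, against 16.9% and 18.4%. Wt1 had 72.9% and 37.7%, against 25.3% and 33.3%. Upk1b at 240 h with DMSO varied by 12.1%, close to its counting error of 12.9%.

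WM-2474 was compared with DMSO at each time to see whether the compound labelled inactive altered these transcripts. At 96 h none of the 8 tested members was called by edgeR's quasi-likelihood F test with Benjamini-Hochberg adjustment, and 0.0% of all 13499 genes were. None of the 8 had an unadjusted p under 0.05, and DESeq2 and limma-voom called none. All 9 members had overlapping libraries, beside 3.62% of all genes whose libraries were all higher and 3.83% whose libraries were all lower with the compound. Between cultures with the same replicate number, which shared deviations at 96 h, Msln and Krt7 were higher with WM-2474 in 3 of 3 pairs. That is 2 of 9 members, beside 13.3% of all tested genes, and no member was lower in all 3 pairs, beside 13.5%. With the replicate number as a block in edgeR's fit the log2 difference was 0.15 for Msln and 0.21 for Krt7, and neither passed (adjusted p = 1 for both, and 0.826 for both with only the libraries of 96 h in the fit). Krt19 was the most tightly bounded, with a log2 difference of -0.02 (95% interval -0.18 to 0.15). Krt7 had 0.21 (-0.10 to 0.52) and Msln 0.15 (-0.30 to 0.60). The intervals for Upk3b, 0.01 (-1.84 to 1.86), Lrrn4, -0.02 (-1.44 to 1.41), Upk1b, 0.16 (-1.0 to 1.31), and Krt8, 0.14 (-0.94 to 1.22), were wide. A 2-fold increase, a log2 difference of 1, lies inside each of these 4 intervals and could not have been told from no difference. Krt18 had -0.12 (-0.71 to 0.46).

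At 240 h again none of the 8 tested members was called, beside 0.0296% of all genes (4 genes). None had an unadjusted p under 0.05. Msln and Wt1 were the members whose libraries did not overlap. Msln had 2.54 to 4.88 CPM with WM-2474 and 1.70 to 2.45 CPM with DMSO, so that the nearest libraries, 2.54 and 2.45 CPM, lay close together. Wt1 had 4, 4 and 4 counts against 1, 1 and 5, or 0.305 to 0.463 CPM against 0.136 to 0.201 CPM. The floor in replicates 1 and 2 of DMSO was 0.425 and 0.408 CPM, above the lowest Wt1 value with WM-2474. The separation of Wt1 is therefore not readable at these counts, and Wt1 was not among the tested genes. Of the 8 tested members that leaves Msln. Of all tested genes 7.58% had all libraries higher with the compound and 6.72% all lower. The log2 difference of Msln was 0.75 ± 0.41 (95% interval -0.16 to 1.66, adjusted p = 0.670). It did not pass the test, and over the alternatives it was 0.54 to 0.92 with an adjusted p of 0.271 to 0.994. Without replicates 1 and 2 of DMSO it was 0.69. For Wt1, fitted without a filter over 19626 genes, the difference was 1.10 (-0.33 to 2.53, adjusted p = 0.786).

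Krt19 differed by 0.01 (-0.19 to 0.22) between WM-2474 and DMSO at 240 h, Krt7 by 0.14 (-0.30 to 0.58) and Krt18 by 0.15 (-0.61 to 0.91) on the log2 scale. The values for Upk1b, -0.20 (-1.48 to 1.08), Krt8, -0.58 (-2.83 to 1.67), Lrrn4, -0.56 (-3.65 to 2.53), and Upk3b, -0.24 (-3.57 to 3.09), were bounded only loosely at these counts. Without replicate 3 of DMSO, which leaves DMSO libraries with 0 counts only, the fitted value of Krt8 was 4.23 and depends on how 0 counts are treated.

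Averaged over both times, Msln differed by 0.45 (-0.06 to 0.96, adjusted p = 0.895) and Krt19 by 0.00 (-0.13 to 0.13). None of the 8 was called, against 0.0148% of all genes. The test of whether the compound's effect differed between the times gave 0.60 (-0.42 to 1.61, adjusted p = 0.977) for Msln and 0.03 (-0.24 to 0.29) for Krt19. None of the 8 was called and 0.0% of all genes were. None had an unadjusted p under 0.05 in either test. For Wt1 in the fit without a filter the difference between the times was 1.74 (0.08 to 3.41, adjusted p = 1), from counts of 1 to 32. A missing call does not show that the compound and its vehicle act alike.

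Genes outside the 9 were then examined to see what else of the mesothelium and of epithelia changed over the same interval. They comprised 79 genes in 7 lists, of which 32 passed the filter on low counts. By edgeR's quasi-likelihood F test 9 of the 32 rose and 10 fell between 96 h and 240 h with DMSO, and 10 rose and 7 fell with WM-2474. Their median log2 difference was -0.01 and -0.03, and that of all tested genes -0.01 and 0.00. Of all tested genes 34.8% were called with DMSO, 17.5% rising and 17.3% falling, and 30.7% with WM-2474, 15.9% rising and 14.8% falling. The lists were drawn up with results of these data known.

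Among 12 other mesothelial genes, 10 were tested. With DMSO 2 rose and 5 fell, and with WM-2474 3 rose and 2 fell. Bnc1, a zinc finger protein of mesothelium and keratinocytes, fell from 6.03 ± 0.704 to 2.87 ± 0.760 CPM with DMSO (log2 difference -1.10 ± 0.21, adjusted p = 0.00016) and from 5.10 ± 1.28 to 2.77 ± 0.591 CPM with WM-2474 (-0.87 ± 0.22, adjusted p = 0.00317). Pdpn, podoplanin, which many stromal cells also carry, fell by 0.42 and 0.39 on the log2 scale. Cdh3, P-cadherin, rose from 59.0 ± 3.72 to 117 ± 5.51 CPM with DMSO (0.99 ± 0.07, adjusted p = 1.12e-11) and from 59.8 ± 6.65 to 131 ± 5.31 CPM with WM-2474. Nkain4, which interacts with the sodium pump, rose by 0.80 and 0.77, but with WM-2474 and library totals it had 0.64 and did not pass (adjusted p = 0.057). Tmem151a, a membrane protein, rose by 0.43 with WM-2474 (adjusted p = 0.00551) and had 0.05 with DMSO, a value that was -0.08 with library totals. Rspo1, a secreted enhancer of Wnt signalling named after its values were seen, fell by 1.85 with DMSO (adjusted p = 0.0126) and had -1.03 with WM-2474 (adjusted p = 0.196). Gpm6a, named here for its low counts in replicate 2, had -2.62 ± 1.09 and -2.38 ± 1.16, neither of which passed the test. Calb2, calretinin, had 0 counts in all 12 libraries, and Muc16 had at most 2.

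Among 12 regulators of the coelomic lining and epicardium 9 were tested, and 1 rose and 2 fell in both treatments. Lhx9, a LIM homeodomain factor of the coelomic epithelium, rose by 0.60 ± 0.09 with DMSO and 0.62 ± 0.09 with WM-2474. Osr1 fell by 0.57 and 0.52, and Gata6 by 0.82 and 0.48 (adjusted p = 0.000872 and 0.0471). The other 6 did not pass the test in either treatment.

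Of 6 further keratins outside the members 2 were tested, and they differed in direction. Krt20 rose by 0.55 ± 0.16 with DMSO and 0.60 ± 0.16 with WM-2474, and Krt80 fell by 0.78 ± 0.18 and 0.86 ± 0.18. Krt80 had 6.09 ± 0.619 and 6.55 ± 1.46 CPM at 96 h and 3.41 ± 0.502 and 3.58 ± 0.114 CPM at 240 h. Of 10 keratins of stratified and basal epithelium, Krt10 alone was tested, and it did not pass. Krt5, the type II keratin of basal cells, had at most 2 counts in any library.

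Of 22 genes of epithelial adhesion and junctions 8 were tested, and in each treatment 5 rose and 1 fell. Perp, a desmosomal membrane protein and p53 target, rose from 7.48 ± 0.391 to 29.7 ± 2.28 CPM with DMSO (1.98 ± 0.09) and from 8.01 ± 0.0902 to 25.5 ± 0.659 CPM with WM-2474 (1.67 ± 0.10). Dsp, desmoplakin, which anchors intermediate filaments to desmosomes, rose by 1.75 ± 0.16 and 1.5 ± 0.16. Jup, plakoglobin, rose by 0.53 and 0.76. Cgn, cingulin of the tight junction, fell by 2.18 ± 0.62 (adjusted p = 0.00785) and 2.56 ± 0.69 (adjusted p = 0.00613), from counts of 4 to 20 at 96 h to 0 to 6 at 240 h. Cdh1, E-cadherin, had at most 2 counts and Epcam at most 5 in every library, so the defining adhesion molecules of classical epithelium were at or near 0 at both times.

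Of 13 epithelial regulators of transcription and splicing, 2 were tested. Klf5, a zinc finger factor of proliferating epithelium, fell from 9.94 ± 1.12 to 3.69 ± 0.452 CPM with DMSO (-1.49 ± 0.15) and from 9.15 ± 0.745 to 3.67 ± 0.451 CPM with WM-2474 (-1.33 ± 0.16). Esrp2 did not pass the test. None of the 4 other uroplakins passed the filter. Among 8 linkers and partners of keratin filaments 7 were tested, and 2 rose and 1 fell in each treatment. Plec, plectin, rose by 0.14 in both, but with library totals it had 0.02 and 0.00 and did not pass. Dst, dystonin, rose by 0.28 with DMSO and had 0.06 with WM-2474, a value that was -0.08 with library totals. Fam83h rose by 0.34 with WM-2474 (adjusted p = 0.0106), did not pass with library totals at 0.21, and had 0.18 with DMSO. Ppl, periplakin, fell by 2.22 ± 0.37 with DMSO (adjusted p = 3.63e-05) and 2.56 ± 0.38 with WM-2474 (adjusted p = 7.57e-06), from 27 to 60 counts at 96 h to 5 to 10 counts at 240 h.

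All 12 regulators of the epithelial to mesenchymal transition and mesenchymal filament genes were tested. With DMSO 4 rose and 3 fell, and with WM-2474 5 rose and 1 fell. Fn1, fibronectin, rose by 0.75 and 0.71, and Vim, vimentin, by 0.25 and 0.29. Cdh2, N-cadherin, fell by 0.19 and 0.23. Twist1, a helix-loop-helix factor of mesenchyme, fell by 0.23 with DMSO and had -0.04 with WM-2474, which did not pass, though with library totals it fell by 0.17 there.

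**Figure D4:**
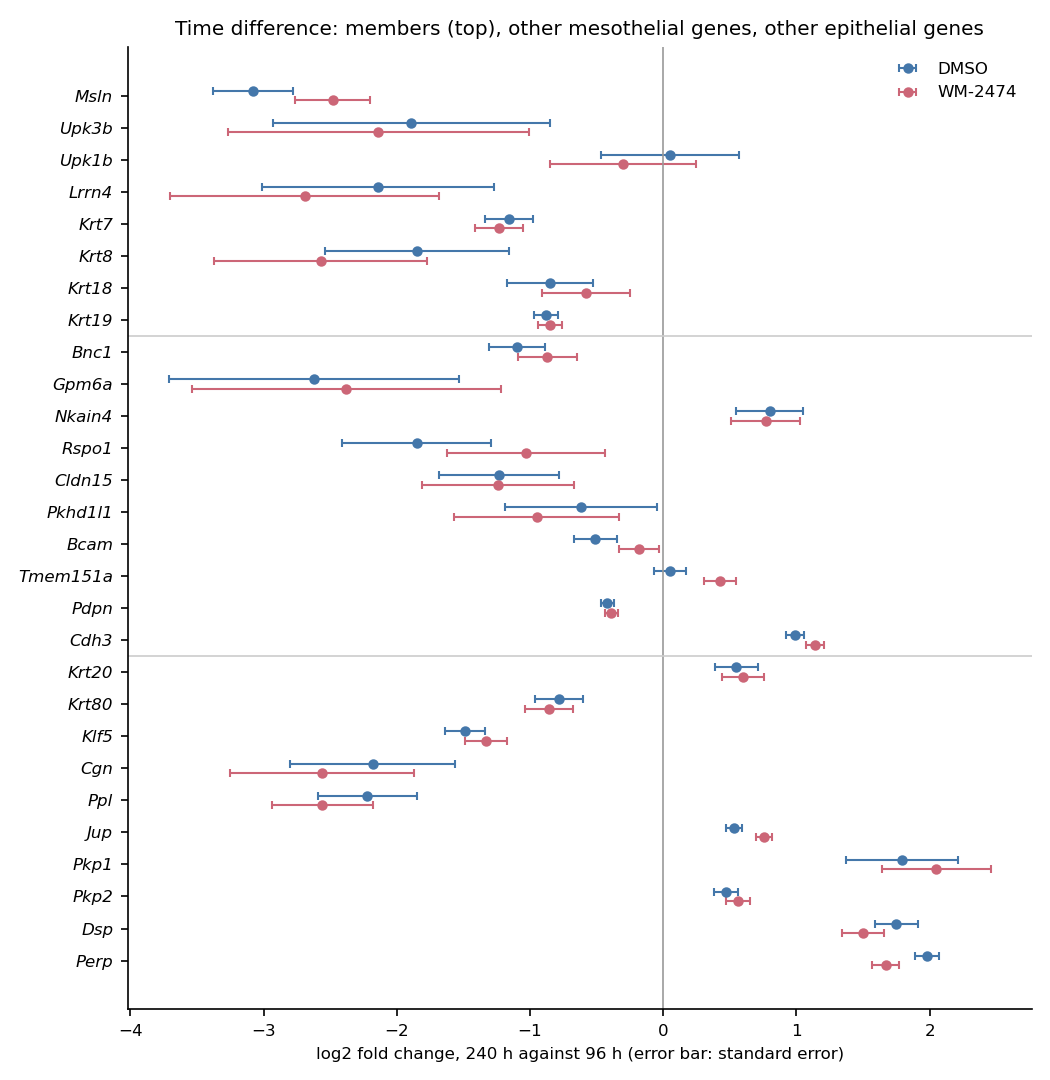
Log2 difference between 240 h and 96 h with DMSO and with WM-2474, with standard errors, for the members and for other mesothelial and epithelial genes, some of them named after their values were seen. Msln and the keratin members lie below 0, Upk1b lies near 0, and Cdh3, Perp and Dsp lie above 0.

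Markers of further cell types that an embryo culture can hold were read beside the members. Endothelial genes summed to 6.15 to 9.90 CPM at 96 h and 3.05 to 6.51 CPM at 240 h, and of 4 tested none rose, while 1 fell with DMSO and 3 with WM-2474. Kdr, a receptor of vascular endothelial growth factor, fell by 0.87 and 1.26 on the log2 scale. Tek, the angiopoietin receptor, fell by 1.10 with WM-2474 and had -0.44 with DMSO, which did not pass. Macrophage and myeloid genes summed to 6.97 to 9.25 CPM at 96 h and 5.18 to 8.03 CPM at 240 h. Of 3 tested, 1 fell in each treatment, Lyz2, a lysozyme, by 2.71 and 1.18. Muscle genes summed to 22.0 to 30.8 CPM and 34.1 to 39.3 CPM, and of 3 tested 2 rose and 1 fell in each treatment. Tnnt2, a cardiac troponin, rose by 1.68 and 1.51, and Actc1, cardiac actin, fell by 1.41 and 1.85. Des, desmin, rose by 0.27 and 0.50, but with DMSO and library totals it had 0.14 and did not pass. Neural genes summed to 95.9 to 111 CPM and 112 to 124 CPM. Of 5 tested, with DMSO Stmn2, a stathmin of neurons, rose by 0.93 and Sox10, a neural crest factor, fell by 0.75, and none passed with WM-2474, where Stmn2 had 0.73. Of 2 tested B lineage genes neither passed, and those with the smallest p were Dntt at 1.78 with DMSO and Cd79a at 1.19 with WM-2474. Their part in the members' levels was not tested.

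The genes whose levels ran most like the members were found among 12915 genes of at least 1 CPM, over all 12 libraries. The libraries span both times, so these values include the step between 96 h and 240 h. For the mean of the 4 tested mesothelial members the 5 most alike were Spry2 (Pearson r = 0.920), Lpl (0.912), Gdf6 (0.904), Ceacam1 (0.900) and Ptgs1 (0.900). For the 4 keratin members they were Gpnmb (0.975), Ceacam1 (0.971), Kcnab1 (0.971), Tmem41b (0.967) and Clu (0.967). With the mean of each group removed, so that only differences between replicates remained, the mesothelial members were followed by Pde8b (0.950), Tbx15 (0.941), Exoc3 (0.931), Ly6a (0.928) and Ptger4 (0.923). The keratin members were then followed by Fancm (0.948), Syne1 (0.938), Fam172a (0.927), Slc14a1 (0.924) and Tfpi (0.917). The members behind each mean did not all run together. With group means removed, Msln had r = 0.25 with Upk3b, 0.14 with Upk1b and 0 with Lrrn4. Upk3b, Upk1b and Lrrn4 had 0.73 to 0.85 with each other. Pairs of keratin members ranged from -0.18 (Krt7 and Krt8) to 0.56 (Krt18 and Krt19). Pairs of a mesothelial and a keratin member ranged from -0.13 (Msln and Krt18) to 0.78 (Upk1b and Krt18). Upk1b also had 0.72 with Krt8, so these values did not part the mesothelial members from the keratins. The libraries share depth and culture, and a search over so many genes returns high values, so no test is attached to these.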

How the data were processed

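RNA-seq counts of 12 cultures were analysed, 3 per group. The authors deposited whole-number read counts for each gene, not normalized, together with exon lengths. Reads had been counted with featureCounts against mm10, per the submitters' processing notes, from strand-specific mRNA libraries, per the labels' protocols. The aligner, the gene models and how strand and multi-mapping reads were handled are not given in the sources used here. Of 27179 table entries, 874 had no identifier (0.547 to 0.648% of a library's counts) and were left out. The other 26305 were matched by gene identifier to RefSeq GRCm38.p6, which named 25275 (96.1%). All 9 members were found. RefSeq promoter windows existed for 5 of them.

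The members and gene lists were chosen with earlier results of these data known. Genes named from the lists were the 2 rising and 2 falling with the smallest p in each time contrast, or the gene with the smallest p where none passed, besides those said to be named after their values were seen. The filter on low counts (filterByExpr, by group) retained 13499 genes. edgeR 4.0.16 (R 4.3.3) fitted all 12 libraries with 1 coefficient per group, TMM scaling and robust dispersion (common biological variation 5.22%). The quasi-likelihood F test was two-sided, with Benjamini-Hochberg adjustment over all tested genes and a threshold of 0.05. Values after ± are standard errors beside log2 differences and standard deviations of 3 libraries beside CPM. Intervals cover the fitted spread, and floors cover counting error only. No replicate pair was identical (chi-square per degree of freedom 2.05 to 5.25). The fit was also run on simulated counts, with changes placed in randomly drawn genes and no deviations shared between replicates. That run does not test the fit at the members' low counts or with paired cultures. Replicate numbers paired the treatments at 96 h, by the correlations of deviations given with the replicates. At 240 h the correlations were weaker (0.0971, 0.114 and 0.0397), though each exceeded those between different numbers (-0.114 to 0.0231). With DMSO, same-numbered cultures of 96 h and 240 h had 0.0557, 0.095 and 0.132. With WM-2474 they had -0.00783, 0.0804 and 0.0664. The value of replicate 1 there lay within the range between different numbers, -0.0818 to 0.0113. The main fit used no pairing. A replicate block with only the compared libraries called 79 genes higher and 12 lower with WM-2474 at 240 h, against 15 and 0 without the block. In total 23 alternatives were run, among them DESeq2 1.42.0, limma 3.58.1 with voom, other scalings and filters, a replicate block and leaving out libraries.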

Additional observations from a re-analysis of the deposited data

How the results depend on the processing

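In every alternative 0 of the tested members were called in the 4 comparisons that involve WM-2474, with the replicate block included (0 called, also with only the compared libraries in that fit, a setting added after seeing the data). Over the 7 other lists the block gave 10 rising and 11 falling genes with DMSO and 10 and 8 with WM-2474. Across all alternatives the counts ranged from 7 to 10 rising and 7 to 12 falling with DMSO and from 8 to 10 and 5 to 10 with WM-2474. Leaving out replicate 2 of all groups, chosen after seeing the data, gave 7 rising and 11 falling, and 8 and 10.

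The members' log2 differences over time moved as follows. Msln ranged from -3.24 to -2.87 with DMSO and from -2.70 to -2.26 with WM-2474. With library totals the median of all genes was -0.13 with DMSO and -0.14 with WM-2474, against -0.01 and 0 in the main fit. Krt19 then had -1.0 and -0.98. With limma-voom Upk3b had -0.27 and Krt8 -2.62 with DMSO. Without replicate 3 of DMSO at 240 h Krt7 had -0.91, and Krt8 had -6.65, with only libraries at 0 counts left in that group. With WM-2474, Upk3b had -3.29 without replicate 1 of 240 h, Krt7 -1.41 without replicate 2, Krt18 -0.91 without replicate 3 and Krt7 -1.52 without replicate 2 of all groups. Krt8 and Lrrn4 did not pass the filter on low counts in some alternatives, such as the fits to the libraries of 240 h alone, and have no value there. The cause of these shifts was not tested, except that few counts remain for Krt8. The lower limit of Krt8, Lrrn4 and Wt1 at 240 h is set by depth.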
